A study of Homo sapiens with 45 samples.

Results

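The untreated libraries of SK-N-BE(2)C and IMR-32, a pair of human neuroblastoma cell lines, were compared gene by gene. They are the 5 control libraries of each line, taken by their labels, 10 of the 45 RNA-seq libraries of a study that treated neuroblastoma lines with the CDK4/6 inhibitor palbociclib (PB). No library from treated cells entered. Both lines grew in DMEM/F12 medium with 10% FBS and no agent, and polyA RNA was made into directional libraries. The controls were collected beside the 24 h treatment samples. SK-N-BE(2)C is a clone of SK-N-BE(2), with amplified *MYCN* and loss of 1p. IMR-32 also carries amplified *MYCN* and loss of 1p, and has amplified *MEIS1*. The 5 replicates of a line were different passages plated in separate experiments. Each line is thus 1 culture sampled 5 times, p-values measure the spread between passages, and the line and anything else that differed between the cultures cannot be told apart.

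Neuroblastoma arises from sympathoadrenal cells of the neural crest. In its adrenergic (ADRN) state a circuit of transcription factors, with HAND2 and GATA3 among them, maintains the genes of catecholamine synthesis and storage, while a mesenchymal (MES) state uses factors such as SNAI2 and YAP1. Amplified *MYCN* marks high-risk tumours, and the amplified segment often carries neighbouring genes.

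Libraries held 13459219 to 23930236 counts, and 17440 to 18651 genes had at least 1 count. Levels below are CPM, each library's counts scaled to a common total with edgeR's TMM factors and not corrected for transcript length, so they are compared between libraries and not between genes. Folds are SK-N-BE(2)C over IMR-32 unless another direction is given. A gene was called when its Benjamini-Hochberg adjusted p from edgeR's quasi-likelihood test was under 0.05 and its log2 fold change beyond 0.5 in either direction. The first principal component held 97.2% of the variance and separated the lines. The second held 1.38% and separated IMR-32 replicate 5, at 41.6, from the other 9 libraries, at -14.0 to 3.13. Where leaving out that library changed a call, or moved a fold change by over 1.5 times, both values are given. In SK-N-BE(2)C, replicates 3 to 5 were closer to each other than to replicates 1 and 2, with chi-square values per degree of freedom of 2.51 to 3.31 against 13.6 to 20.4.

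Most of the genes that passed the filter on low counts differed between the lines. Of 14406 genes tested, 8914 were called (61.9%), 4274 higher in SK-N-BE(2)C (29.7%) and 4640 higher in IMR-32 (32.2%). More than 4-fold apart were 2948 genes (20.5%), 1217 higher in SK-N-BE(2)C and 1731 higher in IMR-32. The libraries of the lines did not overlap in 9891 genes (68.7%). These shares are the background for every count below. Without IMR-32 replicate 5, 9436 genes were called, 8721 of the 8914 kept their call and direction, and 0 reversed.

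**Figure D1:**
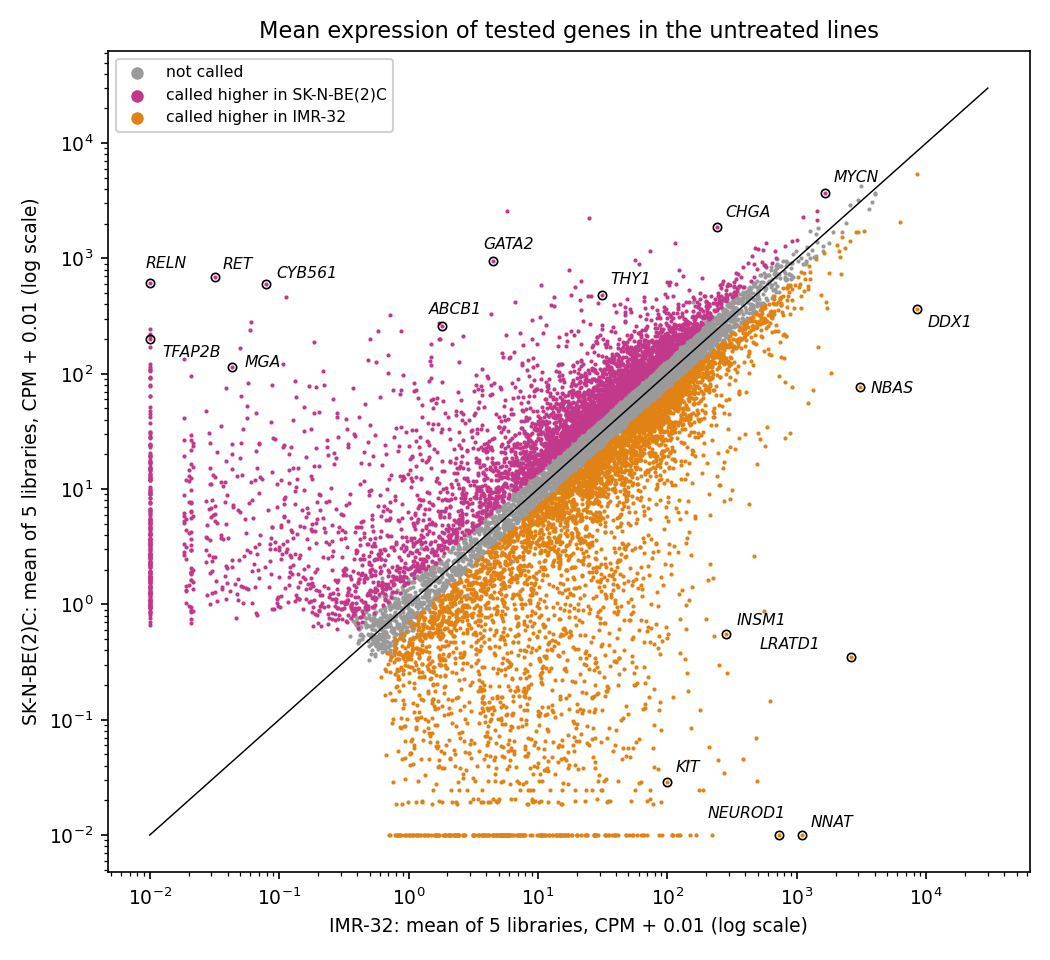
Mean level of each tested gene in IMR-32 (x axis) and SK-N-BE(2)C (y axis), as CPM + 0.01 of 5 libraries each on log scales, coloured by call, with the diagonal marking equal levels. *RELN*, *RET* and *CYB561* lie at the left edge and *NNAT*, *NEUROD1* and *KIT* at the bottom edge, each near 0 in 1 line only.

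Many genes were abundant in one line and nearly without counts in the other. At most 3 counts over the 5 IMR-32 libraries were found for 101 genes with a mean of at least 10 CPM in SK-N-BE(2)C, 64 of them with none. The reverse held for 148 genes, 83 of them with no count in SK-N-BE(2)C. Folds of genes with no count in a line are lower bounds, set against 3 counts over its 5 libraries, and for 1 to 3 counts the ratio is given with its exact 95% interval for counting error only. *RELN*, which encodes the secreted matrix protein reelin, reached 439, 653, 713, 639.7 and 635 CPM in SK-N-BE(2)C replicates 1 to 5 and had no count in IMR-32. It was at least 20662-fold higher in SK-N-BE(2)C. *STOM*, encoding the membrane protein stomatin, was at 264, 252, 239.8, 234 and 233 CPM against no count, at least 8297-fold higher. *NEUROD1*, a proneural bHLH factor, ran the other way, at 724, 746, 716, 775 and 664 CPM in IMR-32 with no count in SK-N-BE(2)C, at least 23551-fold higher in IMR-32. *IFI44*, an interferon-induced gene, was at 174, 187, 193, 166 and 117 CPM in IMR-32 and had no count in SK-N-BE(2)C, at least 5451-fold higher in IMR-32.

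The promoters of these genes are shown because each was near 0 in a line while its gene was abundant in the other. They run from 250 bases before to 50 after the start of the gene (RefSeq, GRCh38.p14), 5′ to 3′ on the gene's strand, with CG dinucleotides in capitals. They lie at chr7:103989609-103989908 (minus strand, *RELN*), chr9:121370201-121370500 (minus strand, *STOM*), chr2:181680468-181680767 (minus strand, *NEUROD1*) and chr1:78649539-78649838 (plus strand, *IFI44*).
RELN: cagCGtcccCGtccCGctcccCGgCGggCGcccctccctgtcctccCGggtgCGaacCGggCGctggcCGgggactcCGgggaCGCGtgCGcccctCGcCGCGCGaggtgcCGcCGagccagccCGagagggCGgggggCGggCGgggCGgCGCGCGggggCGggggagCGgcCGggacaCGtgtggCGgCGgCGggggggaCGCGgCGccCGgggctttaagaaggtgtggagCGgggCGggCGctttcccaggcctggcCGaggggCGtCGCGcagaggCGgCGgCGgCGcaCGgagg
STOM: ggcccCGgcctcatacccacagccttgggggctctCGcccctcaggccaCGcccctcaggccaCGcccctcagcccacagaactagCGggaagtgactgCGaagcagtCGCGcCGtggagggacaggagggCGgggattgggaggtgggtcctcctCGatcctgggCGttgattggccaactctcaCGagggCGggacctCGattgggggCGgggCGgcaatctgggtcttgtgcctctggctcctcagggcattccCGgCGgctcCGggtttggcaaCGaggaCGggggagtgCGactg
NEUROD1: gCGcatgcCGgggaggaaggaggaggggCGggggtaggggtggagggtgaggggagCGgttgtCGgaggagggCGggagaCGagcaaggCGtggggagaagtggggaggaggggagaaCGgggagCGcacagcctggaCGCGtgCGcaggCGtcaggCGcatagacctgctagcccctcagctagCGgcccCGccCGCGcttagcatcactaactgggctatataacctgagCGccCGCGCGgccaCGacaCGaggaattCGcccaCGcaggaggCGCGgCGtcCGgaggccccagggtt
IFI44: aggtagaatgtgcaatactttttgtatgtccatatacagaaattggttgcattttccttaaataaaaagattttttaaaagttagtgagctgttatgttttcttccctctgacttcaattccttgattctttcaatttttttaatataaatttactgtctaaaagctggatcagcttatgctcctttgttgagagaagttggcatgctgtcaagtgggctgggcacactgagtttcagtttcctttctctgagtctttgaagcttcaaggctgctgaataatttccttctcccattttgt
The *RELN* promoter held 52 CG dinucleotides, *STOM* 23, *NEUROD1* 31 and *IFI44* 0. All RefSeq promoters had a median of 14, and those of the 11036 tested genes with an entry a median of 26. Genes over 4-fold higher in SK-N-BE(2)C had a median of 20 and those over 4-fold higher in IMR-32 a median of 25. CACGTG, the E-box letters to which MYC proteins bind, reads the same on both strands and contains a CG. It occurred once in *RELN* and in none of the other 3. It was present in 7.435% of all RefSeq promoters, in 10.3% of those of tested genes, in 10.94% of those called higher in SK-N-BE(2)C, in 9.136% of those called higher in IMR-32 and in 10.75% of those not called. Among genes over 4-fold apart the order of the lines was the reverse, at 7.948% of those higher in SK-N-BE(2)C and 9.38% of those higher in IMR-32.

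The genes with the largest changes covered several functions. In SK-N-BE(2)C the 12 also included *RET*, *CRH*, *VIP*, *TFAP2B* and *OAS3*, described below, and *SEPTIN14*, *ADAMTS3*, *S100A11* and *TSPYL5*. *SEPTIN14*, a septin, was at 158 to 187 CPM and *ADAMTS3*, a procollagen protease, at 115 to 135 CPM. *S100A11*, a calcium-binding protein, was at 102 to 123 CPM and *TSPYL5* at 108 to 113 CPM. *SEPTIN14*, *ADAMTS3*, *S100A11* and *TSPYL5* had no count in IMR-32. In IMR-32 the imprinted gene *NNAT* (neuronatin) was at 959.8, 886, 1147, 897 and 1587 CPM with no count in SK-N-BE(2)C, at least 34634-fold higher in IMR-32. *EYA2*, a transcriptional coactivator, was at 185 to 254 CPM and *NEUROG2*, a proneural factor, at 46.8 to 163 CPM, with IMR-32 replicate 5 the lowest for both. *CHRNA1*, a muscle-type acetylcholine receptor subunit, was at 48 to 173 CPM, *KCNB2*, a potassium channel subunit, at 86.2 to 128 CPM, and *LRRN1*, a leucine-rich repeat membrane protein, at 139.5 to 157 CPM. *PLSCR5* was at 84.3 to 181 CPM. None of these 6 had a count in SK-N-BE(2)C. *THSD7B* had 2 counts in SK-N-BE(2)C and 346 to 548 CPM in IMR-32. *ITGA4*, an integrin subunit, and *CERKL* each reached a mean of 109 CPM in IMR-32, but they share 2813 exon bases on opposite strands. Which strand was counted was not stated, so reads of such genes cannot be told apart. Among the genes described below, at least 10% of the exon bases of *CCND1*, *GSTM1*, *LINC01798*, *MDM2*, *MEST*, *NEFL*, *NEFM*, *NHP2*, *PENK*, *VIM*, *VIP* and *YAP1*, and here of *PLSCR5*, also lie under a gene of the other strand.

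*MYCN* and the genes beside it did not move together. *MYCN*, at chr2:16080672-16087129 (GRCh37, plus strand), was at 4396, 3344, 3287, 3909 and 3652 CPM in SK-N-BE(2)C and at 1777, 1603, 1778, 1807 and 1311 CPM in IMR-32. Every SK-N-BE(2)C library was above every IMR-32 library, with means of 3718 ± 455 and 1655 ± 208 (SD, n = 5 each), a 2.22-fold difference (log2 fold change 1.17, SE 0.10, adjusted p = 7.78e-07). *DDX1*, an RNA helicase whose gene starts 0.349 Mb towards the telomere at chr2:15731302-15774470, ran the other way. It was at 379, 368, 375, 360.3 and 355 CPM in SK-N-BE(2)C and 7699, 7999, 9125, 7850.2 and 9692 CPM in IMR-32, 22.8-fold higher in IMR-32 (log2 fold change -4.53, SE 0.08, adjusted p = 1.53e-12). *NBAS*, a Golgi-to-ER transport factor 0.774 Mb away, averaged 77.4 ± 4.02 against 3093 ± 106 CPM, 39.7-fold higher in IMR-32 (log2 fold change -5.32, SE 0.06, adjusted p = 8.04e-14). *LRATD1*, 1.31 Mb away, was at 0.175 to 0.441 CPM in SK-N-BE(2)C but 1505 to 3050.4 CPM in IMR-32, 8103-fold higher in IMR-32 and lowest there in replicate 5.

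The genes nearest to *MYCN* on each side were higher in SK-N-BE(2)C. The antisense transcript *MYCNOS* averaged 28.7 ± 2.54 against 8.2 ± 1.52 CPM (log2 fold change 1.80, SE 0.13, adjusted p = 9.58e-08), although 763 of its exon bases lie over exons of the other strand. *GACAT3*, a long noncoding RNA, was at 2.02 to 3.23 CPM against no count, at least 83.1-fold higher. On the centromeric side *CYRIA*, *VSNL1*, *KCNS3* and *OSR1* were called higher in IMR-32. All 4 were low, with IMR-32 means of 2.33 to 8 CPM and 3, 1, 15 and 0 counts in all over the SK-N-BE(2)C libraries. Among the 10 other tested genes that start within 2 Mb of *MYCN*, 4 were called higher in SK-N-BE(2)C and 6 higher in IMR-32.

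The wider 2p24 list leaned to SK-N-BE(2)C. Of its 57 tested members, 41 were called higher in SK-N-BE(2)C and 10 higher in IMR-32, with a median log2 fold change of 1.17 against -0.02 over all genes tested. *KLF11* and *ID2*, farther from *MYCN*, were higher in SK-N-BE(2)C by larger folds than *MYCN* itself. The lean ran over the first 30 Mb of chromosome 2. From 0 to 10, 10 to 20 and 20 to 30 Mb, 80.6%, 65.4% and 57.1% of tested genes were called higher in SK-N-BE(2)C. *KLF11*, a zinc finger factor, averaged 3.31 ± 0.46 against 0.0754 ± 0.051 CPM (42-fold). *ID2*, an inhibitor of bHLH factors, averaged 136 ± 32.8 against 5.95 ± 7.89 CPM, where IMR-32 replicate 5 was at 20.1 and the other 4 at 2.06, 2.42, 2.75 and 2.46 CPM. Its log2 fold change was 4.56 with and 5.82 without that library.

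**Figure D2:**
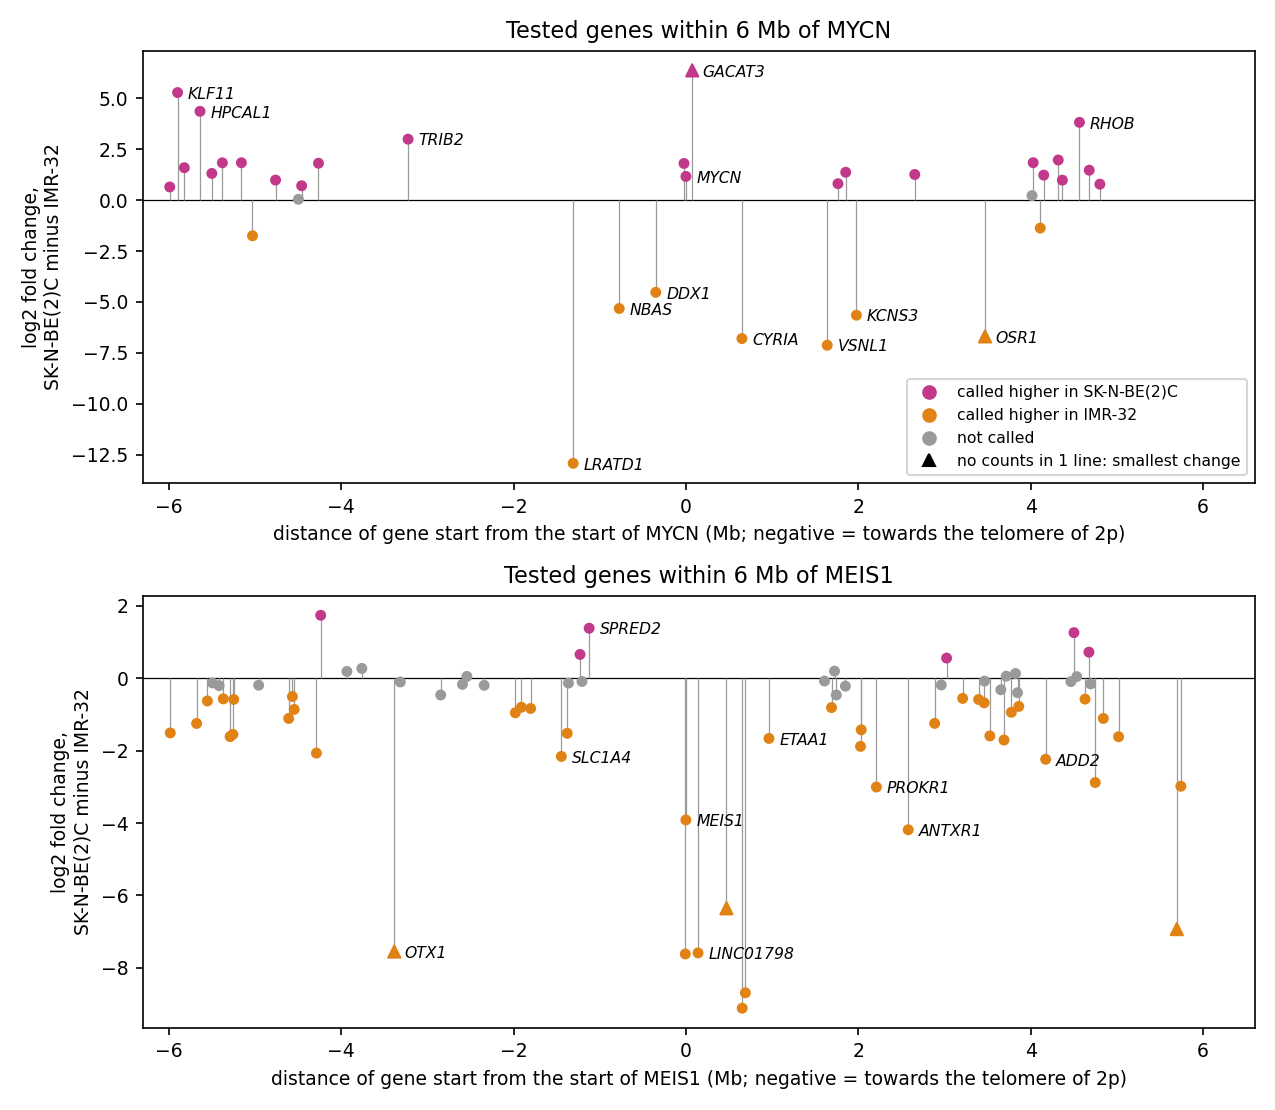
log2 fold change (SK-N-BE(2)C minus IMR-32) of the tested genes that start within 6 Mb of *MYCN* (upper panel) and of *MEIS1* (lower panel), by distance in Mb, with triangles at the smallest change for genes without counts in a line. *DDX1*, *NBAS* and *LRATD1* hang far below 0 beside *MYCN*, which lies above it.

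Around *MEIS1*, a TALE homeobox gene on 2p14, most called genes were higher in IMR-32. *MEIS1*, at chr2:66660584-66801001, was at 19.8, 19.1, 23.6, 22.9 and 25.3 CPM in SK-N-BE(2)C and 314, 342, 378, 332 and 304 CPM in IMR-32, without overlap and 15.2-fold higher in IMR-32 (log2 fold change -3.91, SE 0.10, adjusted p = 2.25e-11). Its antisense neighbour *MEIS1-AS3* averaged 0.191 ± 0.118 against 41.4 ± 14.3 CPM. *LINC01798*, the next transcript on the other side, averaged 0.084 ± 0.0738 against 18.9 ± 3.87 CPM. Reads of *MEIS1* and of transcripts on the other strand cannot be assigned without the strand counted (1456 shared exon bases). *ETAA1*, a replication stress factor 0.964 Mb away, averaged 25.9 ± 1.19 against 82.1 ± 3.84 CPM (log2 fold change -1.66, SE 0.06, adjusted p = 2.19e-10). All 6 other tested genes starting within 1 Mb of *MEIS1* were called higher in IMR-32.

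Farther from *MEIS1* most calls were again higher in IMR-32, with exceptions. *ANTXR1*, an anthrax toxin receptor that binds collagen, starts 2.58 Mb away and averaged 102 ± 2.71 against 1854 ± 131 CPM, 18.3-fold higher in IMR-32. *SPRED2*, an inhibitor of RAS signalling 1.12 Mb towards the telomere, was higher in SK-N-BE(2)C (log2 fold change 1.38, SE 0.13, adjusted p = 9.43e-07). Of the 27 tested members of the 2p14 list, 2 were called higher in SK-N-BE(2)C and 13 higher in IMR-32, with a median log2 fold change of -0.47. Of the 74 genes other than *MEIS1* tested within 6 Mb, 6 and 43 were called in these directions and 25 were not called. This lean was not confined to the surroundings of *MEIS1*. In stretches of 10 Mb from 50 to 110 Mb of chromosome 2, 55.3% to 68.2% of tested genes were called higher in IMR-32. The stretch that holds *MEIS1*, from 60 to 70 Mb, was at 59.6%, against 32.2% over all genes tested. These stretches were chosen after their values were seen.

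Genes of the same chromosome regions also differed as groups, which is described here without a test because neighbouring genes are not independent. Of 14035 tested genes with a position, 41 arms held at least 20, and 23 arms had a median log2 fold change above 0. With upper quartile scaling this number was 18, so arms with medians near 0 have no settled direction. The lowest medians were those of 18q (-0.84, with 100 of 146 tested genes called higher in IMR-32), 17p (-0.70), 11p (-0.66), 9p (-0.59), 1p (-0.59) and 17q (-0.56). The highest were those of 16q (0.72, with 164 of 277 genes called higher in SK-N-BE(2)C), 15q (0.43), 14q (0.39) and 3q (0.35).

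Within arms the shift was uneven. The bins of 10 Mb named here were chosen after their values were seen. On 1p, the first bin had a median of 0.55 with 51 of 103 genes called higher in SK-N-BE(2)C. The 5 bins from 50 to 100 Mb had medians of -1.53 to -1.07, and in the bin from 60 to 70 Mb 28 of 34 genes were called higher in IMR-32 and 0 higher in SK-N-BE(2)C. On 11q the bins from 100 to 130 Mb had medians of 1.20 to 1.47, with 59 of 70 genes from 110 to 120 Mb called higher in SK-N-BE(2)C, while the bin from 60 to 70 Mb had a median of -0.23. On 16q the bins from 70 to 90 Mb had medians of 1.13 and 1.32, and on 15q the bin from 30 to 40 Mb had one of 1.52. On 17q the bin from 80 to 90 Mb had a median of -1.55, with 20 of 22 genes called higher in IMR-32. Both lines are described as having lost 1p, and no copy number was measured here.

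**Figure D3:**
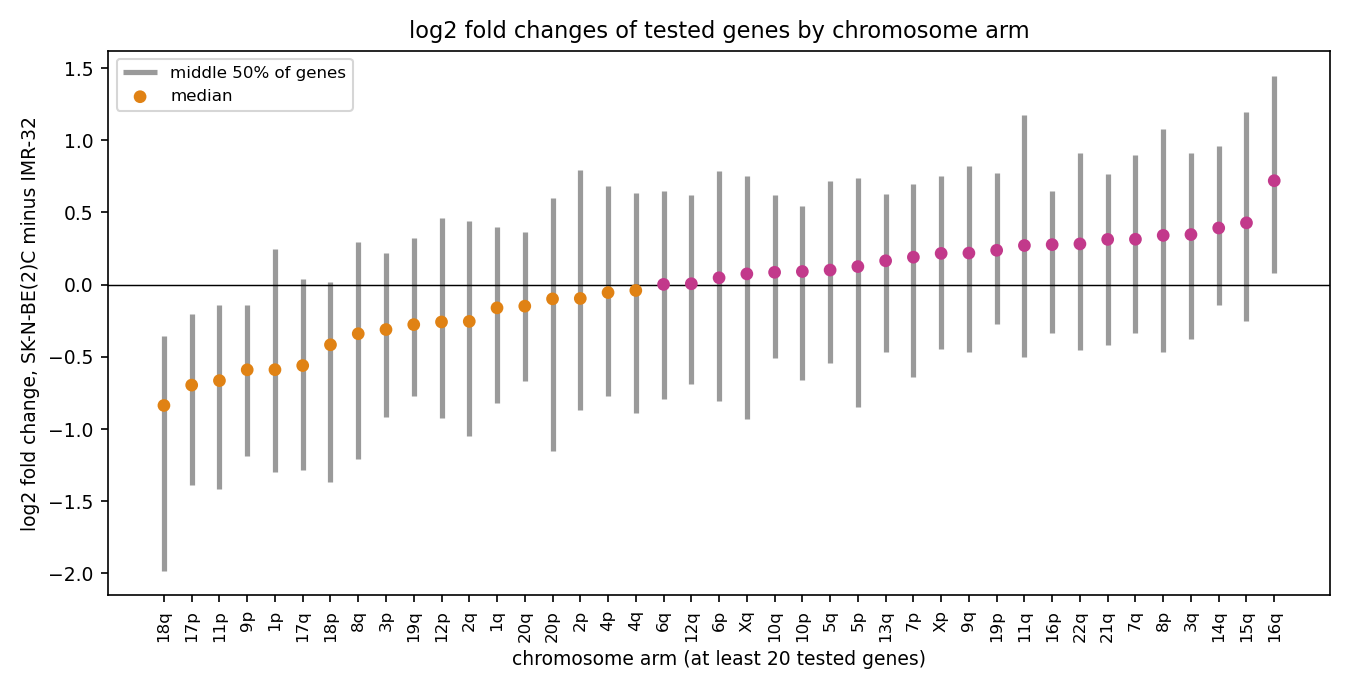
Median (point) and middle 50% (bar) of the log2 fold changes (SK-N-BE(2)C minus IMR-32) of the genes tested on each chromosome arm, ordered by the median. 18q lies lowest at -0.84 and 16q highest at 0.72, and the bars of most arms cross 0.

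Within the MYC and MAX network, 2 of 12 tested genes were called higher in SK-N-BE(2)C, *MYCN* and *MGA*, and 4 higher in IMR-32. *MGA* encodes a MAX-binding repressor. It was at 86.5, 128, 133, 118 and 112 CPM in SK-N-BE(2)C. The IMR-32 libraries held 0.165 CPM in replicate 3 and no count in the other 4 libraries. The ratio was 3890.1 (95% counting interval 1331 to 18866). *MYCL*, a MYC family member, was at 0.294 to 1.58 CPM in SK-N-BE(2)C but 4.5 to 8.5 CPM in IMR-32 (log2 fold change -3.13, SE 0.34, adjusted p = 4.40e-06). *MLXIPL*, which pairs with MLX and responds to glucose, was also higher in IMR-32, at 3.2 to 7.65 CPM against 5 counts in all in SK-N-BE(2)C.

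The ADRN transcription factors were divided between the lines, with some near 0 in one of them. Of the 25 tested, 11 were called higher in SK-N-BE(2)C and 12 higher in IMR-32, and all 11 of the core circuit were called, 6 and 5 in these directions. The calls of *PHOX2A* and *ISL1* among them were lost in 6 and 13 of the 21 alternative fits. *GATA2*, a zinc finger factor of sympathetic development, was at 807, 874, 965, 1062 and 1039.8 CPM in SK-N-BE(2)C and 4.97, 3.22, 3.52, 5.18 and 5.64 CPM in IMR-32. The groups were far apart, at 207-fold (log2 fold change 7.72, SE 0.17, adjusted p = 1.24e-11). *TFAP2B*, an AP-2 factor of the sympathoadrenal lineage, was at 229, 238, 181, 169.6 and 189 CPM in SK-N-BE(2)C with no count in IMR-32, at least 6914-fold higher. *HAND1* averaged 467 ± 57 against 66.4 ± 31.1 CPM and *TBX2* 339 ± 77.5 against 97.2 ± 52.2 CPM, both called without overlap. In IMR-32, replicate 5 was the lowest for *HAND1* and the highest for *TBX2*.

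*PHOX2A*, *GATA3*, *HAND2* and *ISL1*, also of the core circuit, differed by smaller folds. *PHOX2A*, a homeobox factor of autonomic neurons, was at 569.8, 472, 529, 681 and 604 and 472, 412, 308, 491 and 270.5 CPM, which overlap (log2 fold change 0.55, SE 0.17, adjusted p = 9.70e-03). Without IMR-32 replicate 5 its log2 fold change was 0.45 and it was not called. *GATA3* averaged 216 ± 24.9 against 473 ± 59.8 CPM and was higher in IMR-32 without overlap (log2 fold change -1.13, SE 0.10, adjusted p = 8.95e-07). *HAND2* averaged 453 ± 41.7 against 749 ± 146 CPM (log2 fold change -0.73, SE 0.13, adjusted p = 2.44e-04), with 867 exon bases under a gene of the other strand. *ISL1* was at 98.6, 96.8, 89, 86.4 and 91.9 and 145, 154, 159.5, 146 and 61.8 CPM, with IMR-32 replicate 5 below all SK-N-BE(2)C libraries (log2 fold change -0.53, SE 0.21, adjusted p = 3.51e-02). Without that library its log2 fold change was -0.70, while limma-voom gave -0.45 (adjusted p = 0.0881) and the replicate block -0.46 (edgeR adjusted p = 0.0655), neither called. Its edgeR, DESeq2 or limma adjusted p ranged from 1.75e-08 to 0.134 over the alternatives.

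Beyond the core circuit, *INSM1* and *INSM2* differed in opposite directions. *INSM1*, a zinc finger factor of neuroendocrine cells, was at 0 to 1.3 CPM in SK-N-BE(2)C but 104 to 402 CPM in IMR-32 (483-fold higher there), whereas its paralog *INSM2* was at 167 to 276 CPM in SK-N-BE(2)C but 0.465 to 3.53 CPM in IMR-32 (78.7-fold). *HEY1*, a Notch target, was higher in SK-N-BE(2)C (60.6 ± 11.8 against 1.53 ± 0.118 CPM). *SATB1*, a chromatin organiser, averaged 30.7 ± 2.52 against 502 ± 38.7 CPM and *DACH1* 10.8 ± 7.2 against 251 ± 29 CPM, both higher in IMR-32. *LMO3*, a LIM-only cofactor, was at 0.0735 to 0.267 CPM in SK-N-BE(2)C but 2.38 to 10.5 CPM in IMR-32.

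**Figure D4:**
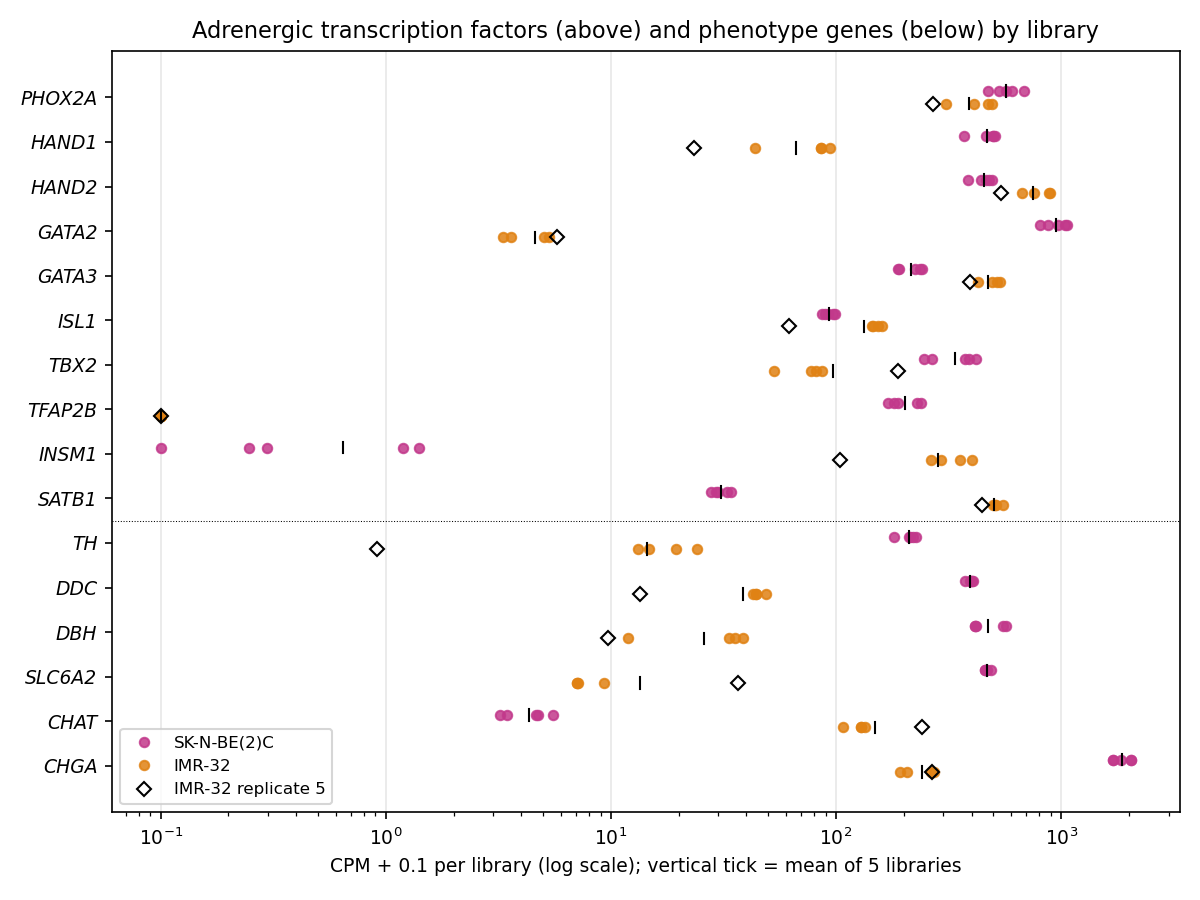
Level of 10 ADRN transcription factors (above the dotted line) and 6 phenotype genes (below it) in each library, as CPM + 0.1 on a log scale, with IMR-32 replicate 5 as an open diamond and the mean of 5 libraries as a vertical tick. The lines overlap in *PHOX2A* and *ISL1* and lie far apart in *GATA2* and *INSM1*.

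Most catecholamine synthesis and storage genes were higher in SK-N-BE(2)C. Of 8 tested, 6 were called higher in SK-N-BE(2)C and 1 higher in IMR-32, with a median log2 fold change of 3.60. *TH*, the rate-limiting enzyme, was at 214, 181, 209.8, 219 and 228 CPM in SK-N-BE(2)C and 19.4, 13.1, 14.6, 24.1 and 0.814 CPM in IMR-32, 13.7-fold higher (log2 fold change 3.85, SE 0.50, adjusted p = 2.35e-05). *DDC*, which makes dopamine, was at 376 to 406 against 13.4 to 48.9 CPM, and *DBH*, which makes noradrenaline, at 412 to 568 against 9.6 to 38.4 CPM. For all 3 the lowest library was IMR-32 replicate 5. *CYB561*, the vesicle cytochrome that supplies reducing power to DBH, averaged 599.7 ± 39.1 CPM against 7 counts in all in IMR-32. *SLC18A1*, a vesicular monoamine transporter, was at 9.51 to 22.3 CPM against no count, at least 534-fold higher.

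Uptake and cholinergic genes did not follow one direction. *SLC6A2*, the noradrenaline transporter, was at 469, 488, 459, 461 and 461 CPM in SK-N-BE(2)C and 6.98, 6.99, 9.23, 7.01 and 36.5 CPM in IMR-32 (log2 fold change 5.15, SE 0.49, adjusted p = 1.54e-06), and its log2 fold change was 5.96 without IMR-32 replicate 5. *SLC6A3*, the dopamine transporter, was higher in IMR-32 (0.107 ± 0.0923 against 13.1 ± 3.31 CPM). *CHAT*, which makes acetylcholine, was at 5.44, 4.55, 3.11, 4.63 and 3.36 CPM in SK-N-BE(2)C and 129.5, 135, 107, 129.6 and 240.3 CPM in IMR-32, 34.4-fold higher there (log2 fold change -5.13, SE 0.26, adjusted p = 7.14e-09). Over the whole list of 20 tested genes, 9 were called higher in SK-N-BE(2)C and 4 higher in IMR-32, with a median of 0.04.

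Granins and neuropeptides leaned the same way as catecholamine synthesis, with 12 of 18 tested genes called higher in SK-N-BE(2)C, 5 higher in IMR-32 and a median log2 fold change of 1.64. *CHGA*, a granin of secretory granules, was at 2047, 2047, 1707, 1841 and 1703 CPM in SK-N-BE(2)C and 265, 206, 193, 273 and 266 CPM in IMR-32 (log2 fold change 2.96, SE 0.12, adjusted p = 7.45e-10). *SCG2* averaged 890.0 ± 94.6 against 60.6 ± 11.2 CPM and *VGF* 1372 ± 136 against 115 ± 17.7 CPM. Among neuropeptides, *CRH* was at 151, 118, 271, 284 and 272 CPM and *VIP* at 119, 121, 96.7, 97.9 and 103 CPM in SK-N-BE(2)C, and neither had a count in IMR-32, so they were at least 7092-fold and at least 3672-fold higher. *NPY* averaged 72.5 ± 15.6 against 1.13 ± 0.802 CPM. *CPE*, the carboxypeptidase that trims neuropeptides, was the reverse, at 0.107 to 0.221 CPM in SK-N-BE(2)C but 99.9 to 175 CPM in IMR-32 (883-fold higher there). The convertase *PCSK2* and the enkephalin precursor *PENK* were detected only in IMR-32, at 0.698 to 2.36 and 0.549 to 2.8 CPM.

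Receptor genes showed some of the sharpest contrasts. Of 33 receptor tyrosine kinases and neurotrophin receptors tested, 13 were called higher in SK-N-BE(2)C and 16 higher in IMR-32. *RET*, a receptor for GDNF family ligands, was at 611, 571, 743, 759 and 749.6 CPM in SK-N-BE(2)C, and 2 counts were found over all IMR-32 libraries. The ratio was 34224 (95% counting interval 9474 to 282606). Its coreceptor *GFRA1* was the opposite, with 2 counts over all SK-N-BE(2)C libraries and 284, 296, 311, 252 and 228 CPM in IMR-32, a ratio of 13295 (95% counting interval 3680.0 to 109783) towards IMR-32. *KIT*, the stem cell factor receptor, had 2 counts in SK-N-BE(2)C and 85.4 to 127 CPM in IMR-32, a ratio of 4842 (95% counting interval 1340.1 to 39988) towards IMR-32.

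*ALK*, a receptor kinase mutated in some neuroblastomas, was higher in IMR-32, as were the neurotrophin receptors named here. *ALK* was at 14.3, 19.1, 7.4, 6.62 and 6.36 CPM in SK-N-BE(2)C and 95.9, 96.2, 119, 72.8 and 160.2 CPM in IMR-32, 9.29-fold higher there (log2 fold change -3.32, SE 0.34, adjusted p = 2.87e-06). *NTRK2*, the receptor for BDNF, had no count in SK-N-BE(2)C and was at 1.11 to 3.9 CPM in IMR-32. *NTRK3*, the receptor for neurotrophin 3, averaged 2.12 ± 0.158 against 70.8 ± 36.3 CPM, with IMR-32 replicate 5 at 10.4 CPM and the other 4 at 101, 88.8, 64.8 and 89.2 CPM. *PDGFRA* averaged 0.49 ± 0.312 against 53.3 ± 34.5 CPM, and there IMR-32 replicate 5 was the highest at 115 CPM. *AXL* and *FLT1*, by contrast, were at 17.6 to 22.9 and 8.53 to 11.4 CPM in SK-N-BE(2)C with no count in IMR-32. Of 19 ephrin and Eph genes tested, 7 were called higher in SK-N-BE(2)C, among them *EPHB4* (8.57 ± 1.92 against 0.102 ± 0.204 CPM, a log2 fold change of 6.47 with and 8.89 without IMR-32 replicate 5), and 8 higher in IMR-32, among them *EPHB6* (3 counts against 16.5 to 20.8 CPM).

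Surface antigens that serve as targets or markers in neuroblastoma were divided between the lines, with 11 of 20 tested genes called higher in SK-N-BE(2)C and 7 higher in IMR-32. *CD44*, a hyaluronan receptor, averaged 64.5 ± 5.2 against 0.0405 ± 0.0394 CPM (1619-fold). *THY1* (CD90) was at 464 to 511 against 29.4 to 34.4 CPM, with 864 exon bases under a gene of the other strand. *CD9*, a tetraspanin, was at 116 to 157 CPM in SK-N-BE(2)C, at 0.134, 0.403, 0.275 and 0.0425 CPM in IMR-32 replicates 1 to 4 and at 6.57 CPM in replicate 5. Its log2 fold change was 6.69 with and 9.39 without that library. *ST8SIA1*, the GD3 synthase required for the ganglioside GD2, was at 0 to 0.131 CPM in SK-N-BE(2)C but 23.6 to 51.9 CPM in IMR-32 (1106-fold higher there). *GPC2* (glypican 2) averaged 10.9 ± 2.84 against 257 ± 59 CPM and *SSTR2*, the somatostatin receptor used in imaging, 23.6 ± 4.66 against 568 ± 167 CPM, both higher in IMR-32. RNA levels do not give the amount of antigen at the surface.

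Of 26 drug transport and detoxification genes tested, 9 were called higher in SK-N-BE(2)C and 8 higher in IMR-32. These are near the shares over all genes tested, 29.7% and 32.2%. *ABCB1*, which encodes the efflux pump P-glycoprotein, was at 267, 259, 258, 255 and 249.5 CPM in SK-N-BE(2)C and 1.48, 1.61, 3.02, 1.53 and 1.34 CPM in IMR-32. The libraries did not overlap, and the fold was 146 (log2 fold change 7.17, SE 0.17, adjusted p = 1.78e-11). *GSTM1*, a glutathione transferase, had no count in SK-N-BE(2)C and was at 38.4 to 39.5 CPM in IMR-32, at least 1260.3-fold higher there. Reads of *GSTM1* can be shared with near-identical family members, so its value is uncertain. *MGST1*, a microsomal transferase, averaged 0.0487 ± 0.0503 against 15.3 ± 2.28 CPM. *SLC7A11*, a cystine transporter, was higher in SK-N-BE(2)C (24.5 ± 4.75 against 3.82 ± 4.01 CPM), with IMR-32 replicate 5 the highest of its line at 10.9 CPM. Its log2 fold change was 2.71 with and 3.61 without that library.

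MES-state genes were not confined to either line. Of 36 tested, 17 were called higher in SK-N-BE(2)C and 10 higher in IMR-32, with a median log2 fold change of 0.96, and without IMR-32 replicate 5 the numbers were 22 and 10. Among transcription factors 8 were called higher in SK-N-BE(2)C and 7 higher in IMR-32. *SOX9* averaged 36.5 ± 2.69 against 1.54 ± 2.78 CPM, with a log2 fold change of 4.66 that was 6.91 without IMR-32 replicate 5 (the other 4 averaged 0.302 CPM). *YAP1*, a Hippo pathway effector, was at 0 to 0.16 CPM across the SK-N-BE(2)C libraries, at 1.25, 1.46, 0.604 and 1.02 CPM in IMR-32 replicates 1 to 4 and at 17.6 CPM in replicate 5. Its log2 fold change was -5.31 with and -3.32 without that library. Of the matrix and cytoskeletal genes 9 were called higher in SK-N-BE(2)C and 3 higher in IMR-32. *LUM* and *DCN*, which encode small proteoglycans, averaged 132 ± 25 and 33 ± 2.25 CPM in SK-N-BE(2)C against 0.476 ± 0.123 and 0.168 ± 0.143 CPM in IMR-32. *LGALS1* (galectin 1) averaged 119.6 ± 18.1 against 1.47 ± 0.354 CPM. *COL1A1*, a collagen I chain, was the reverse, at 15.2 ± 3.62 against 110.5 ± 22.6 CPM (7.42-fold higher in IMR-32). *VIM* (vimentin) was at 442, 423, 599, 619 and 629.6 CPM and 341, 355, 364, 321 and 801 CPM, overlapping between the lines, and was not called (log2 fold change 0.31, SE 0.25, adjusted p = 2.67e-01), but without that library its log2 fold change was 0.66 (edgeR adjusted p = 9.82e-04) and it was called.

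Markers of other states and cell types were summed to place both lines. The 10 ADRN markers summed to 4268 to 4726 CPM in SK-N-BE(2)C, to 2864 to 3445 CPM in IMR-32 replicates 1 to 4 and to 2328 CPM in replicate 5, so both lines carried the labelled cell type's markers and none was at 0. The 7 MES markers counted summed to 613 to 823 CPM in SK-N-BE(2)C. They reached 581 to 621 CPM in IMR-32 replicates 1 to 4 and 1094 CPM in replicate 5. *VIM* made up most of the sum in every library. The MES factor *SNAI2* was at 28.5 CPM in IMR-32 replicate 5 and at 0.313, 0.252, 1.04 and 0.127 CPM in the other 4. It was not called between the lines (log2 fold change 0.75), but without that library it was called higher in SK-N-BE(2)C, at 4.58. Fibroblast markers had sums of 226 to 321 CPM in the SK-N-BE(2)C libraries and of 93.0 to 153 CPM in those of IMR-32, epithelial markers of 7.72 to 10.0 and 0.0582 to 0.302 CPM, and immune markers of 3.45 to 5.52 and 0.453 to 0.872 CPM. The fibroblast markers went both ways, with *COL1A1* making up most of the sum in IMR-32 and *LUM* and *PDGFRB* (88.2 ± 24.1 against 14.9 ± 2.78 CPM) most of that in SK-N-BE(2)C. The 3 chromaffin cell markers summed to 1704 to 2048 CPM in the SK-N-BE(2)C libraries and to 195 to 277 CPM in the IMR-32 libraries, nearly all of it *CHGA*. Endothelial markers summed to at most 1.05 and 2.25 CPM, and Schwann cell markers to at most 8.12 and 3.54 CPM. The part of these markers in the differences above was not tested, and fewer cells of a kind cannot be told apart from less RNA per cell.

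Adhesion and matrix genes had members near 0 in each line. Of 23 cadherins and protocadherins tested, 11 were called higher in SK-N-BE(2)C and 9 higher in IMR-32, and the 11 protocadherins alone gave 7 and 3. *PCDH7* averaged 61.2 ± 9.7 against 1.18 ± 0.453 CPM, with 1602 exon bases shared with the other strand. *CDH3* (P-cadherin) was at 0 to 0.16 CPM in SK-N-BE(2)C but 3.26 to 9.77 CPM in IMR-32. Of 14 collagen genes tested, 2 were called higher in SK-N-BE(2)C and 9 higher in IMR-32, and of 14 integrin genes 8 and 4.

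Neuronal genes were split by class. Of the 7 intermediate filament genes tested, 4 were called higher in SK-N-BE(2)C and 0 higher in IMR-32. *NEFH*, the heavy neurofilament subunit, was at 264, 263, 465, 488 and 478 CPM in SK-N-BE(2)C and 11.2, 11, 22.2, 8.71 and 9.36 CPM in IMR-32 (log2 fold change 4.97, SE 0.32, adjusted p = 5.33e-08). *NEFM* and *NEFL* averaged 800.0 ± 179.5 and 628 ± 136 CPM against 124 ± 13.9 and 100.1 ± 29.2 CPM. *PRPH* (peripherin) averaged 565 ± 101 against 19.3 ± 7.85 CPM, but 1872 of its exon bases lie under a gene of the other strand. Of 21 microtubule and growth cone genes, 5 were called higher in SK-N-BE(2)C and 10 higher in IMR-32. *DCX* (doublecortin), a protein of migrating neurons, was at 50.6, 53.1, 24.1, 22.2 and 24.4 CPM in SK-N-BE(2)C and 653, 704, 645, 704 and 218 CPM in IMR-32. *GAP43*, a growth cone protein, was higher in SK-N-BE(2)C (166 ± 3.3 against 41.9 ± 15.9 CPM), and *MAPT* (tau) was higher in IMR-32, at 170.0, 158, 252 and 205 CPM in replicates 1 to 4 and 11.1 CPM in replicate 5 against 16.4 to 28.4 CPM.

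Synapse and ion channel genes leaned to IMR-32. Of 52 synapse genes tested, 12 were called higher in SK-N-BE(2)C and 31 higher in IMR-32, with a median log2 fold change of -0.87. *SV2B*, a synaptic vesicle protein, had 3 counts in SK-N-BE(2)C and was at 33.5, 31.1, 23.1, 42.4 and 7.56 CPM in IMR-32. *NLGN1*, a postsynaptic adhesion protein, had 1 count in SK-N-BE(2)C and was at 6.86 to 10.9 CPM in IMR-32. Of 64 ion channel genes, 21 were called higher in SK-N-BE(2)C and 38 higher in IMR-32, with a median of -1.29. *KCNQ3*, a subunit of the M current, and *KCNK2*, a background potassium channel, had 1 and 1 count in SK-N-BE(2)C and were at 54.6 to 81.5 and 51.9 to 61 CPM in IMR-32. *KCNT1*, a sodium-activated potassium channel, was the reverse, at 216 to 255 CPM in SK-N-BE(2)C but 0.116 to 1.78 CPM in IMR-32 (250.2-fold).

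**Figure D5:**
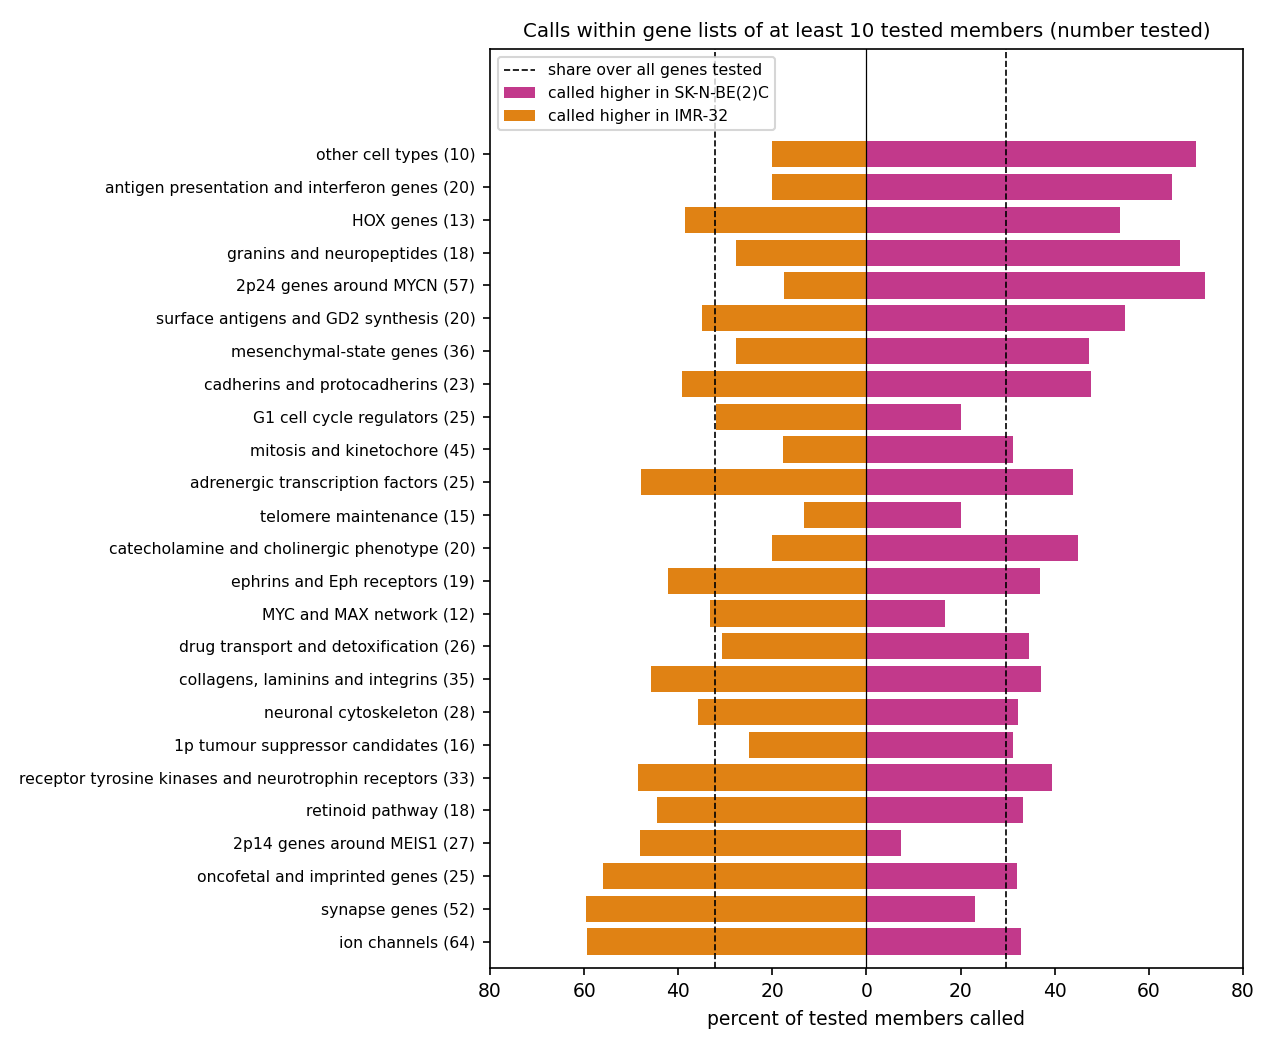
Percent of the tested members of the gene lists shown called higher in SK-N-BE(2)C (right) and higher in IMR-32 (left), with dashed lines at the shares over all genes tested, 29.7% and 32.2%. Lists are ordered by their median log2 fold change, with synapse and ion channel genes at the bottom.

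Of 45 mitosis and kinetochore genes tested, 14 were called higher in SK-N-BE(2)C and 8 higher in IMR-32, and none was more than 4-fold apart, against 20.5% of all genes tested. With upper quartile scaling these counts were 9 and 9. Of 25 regulators of G1, the phase that PB acts on, 5 were called higher in SK-N-BE(2)C and 8 higher in IMR-32, or 6 and 6 without IMR-32 replicate 5. The PB target *CDK4* averaged 370.2 ± 11.7 against 325 ± 43.8 CPM and was not called (log2 fold change 0.19, SE 0.08, adjusted p = 5.14e-02). It has 1369 exon bases under genes of the other strand. Its relative *CDK6* averaged 276 ± 55 against 537 ± 57 CPM and was higher in IMR-32 (log2 fold change -0.96, SE 0.13, adjusted p = 2.35e-05). *CCND1* (cyclin D1) averaged 1721 ± 183 against 1274 ± 128 CPM without overlap, a difference under the fold needed for a call (log2 fold change 0.43, SE 0.09, adjusted p = 7.17e-04), and *RB1* averaged 154 ± 12 against 103 ± 13.6 CPM (log2 fold change 0.58, SE 0.09, adjusted p = 8.84e-05). *CDKN2B*, an inhibitor of CDK4 and CDK6, was at 3.67 to 4.7 CPM in SK-N-BE(2)C but 0.0503 to 0.275 CPM in IMR-32. *CDKN1C*, another inhibitor and an imprinted gene, was at 0 to 0.641 against 10.7 to 72.4 CPM, 175-fold higher in IMR-32.

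*CDKN1A* (p21), an inhibitor of cyclin-dependent kinases, was at 13, 12.7, 6.86, 5.81 and 6.68 and 12.5, 10.3, 14.3, 11.6 and 29.7 CPM, which overlap (log2 fold change -0.79, SE 0.33, adjusted p = 4.78e-02), and it was not called without IMR-32 replicate 5, at -0.41, nor in 11 other of the 21 alternative fits. *MDM2*, a ubiquitin ligase, averaged 114 ± 8.6 against 147 ± 24.9 CPM and was not called (log2 fold change -0.36, SE 0.10, adjusted p = 6.78e-03). *PHLDA3*, an AKT inhibitor, was at 0.0987 to 0.837 against 16.5 to 21.6 CPM (45.8-fold higher in IMR-32), and *EDA2R* had no count in SK-N-BE(2)C and was at 0.51 to 1.63 CPM in IMR-32. *PLK2*, a polo-like kinase, went the other way, at 60.1 to 73.8 CPM in SK-N-BE(2)C against 3.06 to 6.4 CPM. *TERT*, the telomerase catalytic subunit, was at 3.3 to 4.88 and 4.43 to 6.86 CPM and was not called (log2 fold change -0.39, SE 0.16, adjusted p = 4.25e-02).

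HOX clusters differed as blocks. All 7 tested *HOXC* genes were called higher in SK-N-BE(2)C, with a median log2 fold change of 3.92, and 5 of 6 tested *HOXD* genes were called higher in IMR-32, with a median of -1.04. No *HOXA* or *HOXB* gene counted here passed the count filter. *HOXC9* averaged 13 ± 1.12 against 0.856 ± 0.139 CPM and *HOXC10* 19.7 ± 3.52 against 0.229 ± 0.197 CPM. *HOXD9* averaged 8.1 ± 1.09 against 27.5 ± 6.11 CPM.

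Some imprinted genes were near 0 in 1 of the lines. Of 20 tested, 7 were called higher in SK-N-BE(2)C and 11 higher in IMR-32, and 12 were over 4-fold apart. *IGF2*, a fetal growth factor, was at 313, 205, 149, 190.5 and 148 CPM in SK-N-BE(2)C and 2.42, 2.01, 0.714, 2.42 and 1.11 CPM in IMR-32 (113-fold), whereas *H19*, its neighbour on 11p, was higher in IMR-32 (11.3 ± 6.87 against 94.1 ± 40.3 CPM). *DLK1*, which lies in the 14q imprinted cluster, was at 1808, 1765, 698, 718 and 786 CPM in SK-N-BE(2)C and 86.1, 83.3, 63.2, 105 and 28.7 CPM in IMR-32, with SK-N-BE(2)C replicates 1 and 2 above replicates 3 to 5 (log2 fold change 3.97, SE 0.42, adjusted p = 3.86e-06). *RTL1*, in the same cluster, was at 26.5, 29, 5.03, 5.51 and 9.19 CPM against no count, with the same split and with 1926 exon bases under the other strand. *NDN* was at 9.01 to 13.7 CPM against no count. *MEST* and *GRB10* were higher in IMR-32, averaging 141 ± 34.5 and 79.5 ± 10.9 CPM there against 0.245 ± 0.178 and 0.174 ± 0.0675 CPM. *LIN28B*, an oncofetal RNA-binding protein, averaged 149 ± 14.1 against 56.1 ± 6.43 CPM (log2 fold change 1.41, SE 0.09, adjusted p = 3.88e-08), and *IGF2BP2* had 3 counts in SK-N-BE(2)C against 13.1 to 17.7 CPM.

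Genes of retinoid uptake, transport and signalling were also divided, with 6 of 18 tested called higher in SK-N-BE(2)C and 8 higher in IMR-32. *STRA6*, a retinol uptake receptor, averaged 321 ± 33.8 against 0.708 ± 0.33 CPM. *CRABP2*, which carries retinoic acid, averaged 110.2 ± 11.8 against 20.7 ± 9.58 CPM. *RARB* and *RXRG*, which encode receptors, were higher in IMR-32, at 1.98 to 11.2 and 10.6 to 22.5 CPM against 1.04 to 1.91 and 0 to 0.0465 CPM, and so was *CYP26B1*, which degrades retinoic acid, at 2.91 to 4.54 CPM against no count. *MEIS2*, a relative of *MEIS1*, was 9.64-fold higher in SK-N-BE(2)C (log2 fold change 3.27, SE 0.07, adjusted p = 1.21e-11).

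Antigen presentation and interferon genes leaned to SK-N-BE(2)C. Of 20 tested, 13 were called higher in SK-N-BE(2)C and 4 higher in IMR-32, with a median log2 fold change of 1.99, and 16 more of those counted were too low to test. All 5 tested antigen presentation genes were called higher in SK-N-BE(2)C. *HLA-C*, a class I heavy chain, was at 13.3 to 20 CPM against no count, and reads of the class I genes can be shared among them. *NLRC5*, which activates class I genes, averaged 23.2 ± 5.41 against 1.19 ± 0.191 CPM. Of the interferon response genes, *OAS3* was at 191, 194, 231, 227 and 224 CPM in SK-N-BE(2)C with no count in IMR-32 and *OAS1* at 12 to 14.3 CPM with 1 count in IMR-32. *IFI44*, as given above, was seen in IMR-32 alone.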

How the data were processed

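PolyA RNA from untreated SK-N-BE(2)C and IMR-32 was sequenced as directional paired-end libraries, 5 per line. The authors trimmed reads with Trim Galore 0.6.4, aligned them to hg19 with STAR (2.6.1d in the submitters' processing notes) and deposited raw counts per gene. The strand counted was not stated in the labels or methods. Deposited CPM values and the authors' own fold changes and p-values, which compare treatments within a line, were not used. Both lines' counts were joined by gene symbol (29159 genes). Groups came from the labels. In R 4.3.3, edgeR 4.0.16 gave TMM factors and a robust quasi-likelihood fit with 1 mean per line over the genes that filterByExpr retained (minimum count 10, minimum total 15). Calls needed a Benjamini-Hochberg adjusted p below 0.05 together with a log2 fold change beyond 0.5 in either direction. limma 3.58.1 and DESeq2 1.42.0 were alternatives. The fit was also run on simulated counts in which far fewer genes changed than differed here. That run cannot show how the scaling behaves when most genes differ. Positions are GENCODE v44 on GRCh37, matched for 25637 genes by symbol and 315 by an older symbol.

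The gene lists, the rule for named genes and the tests were chosen with earlier results of these data known. The rule named a panel of neuroblastoma genes, up to 4 called members of each list in each direction without overlap between the lines, the genes nearest *MYCN* and *MEIS1*, and the 12 genes with the largest change in each direction. *ETAA1*, *GAP43*, *H19*, *IGF2BP2*, *KCNS3*, *LGALS1*, *MAPT*, *NEFL*, *NLRC5*, *NTRK3*, *PDGFRB*, *RARB*, *SCG2*, *SNAI2*, *SOX9* and *VGF* fall outside it. They were named after their values were seen. Some genes and lists that the rule covers are not reported here. Of the 240 genes the rule named, 34 have at least 10% of their exon bases under a gene of the other strand. Depth limits genes under about 1 CPM, and counting intervals cover counting error only.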

Additional observations from a re-analysis of the deposited data

Results flagged for a closer look

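A library stood apart from the other 4 of its line, by a gap over range above Dixon's 95% limit for 5 values, in 42 of 312 comparisons made over the genes with values in the text. For continuous values chance gives this in about 1 in 20, a rate that does not apply to the 8 of them in which only 1 library of the line had counts. IMR-32 replicate 5 was that library in 27 of the 42, and over all 14392 genes listed it was so in 14.47%, against 0.3752% to 1.035% for the other IMR-32 libraries and 0.5281% to 2.064% for the SK-N-BE(2)C libraries. It also stood apart on the second principal component (41.6 against -14.0 to -5.92 in the other IMR-32 libraries) and on the first (116 against 126 to 127). Its total of 17402647 counts was the lowest of its line.

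The CPM of IMR-32 replicate 5 was above the other 4 libraries of the line, whose range follows each value, for *CD9* (6.57 against 0.0425 to 0.403), *CDKN1A* (29.7 against 10.3 to 14.3), *CHAT* (240.3 against 107 to 135), *EPHB4* (0.465 against 0 to 0.0448), *ID2* (20.1 against 2.06 to 2.75) and *MDM2* (190.4 against 129 to 144). It was above them too for *PDGFRA* (115 against 34.9 to 41.7), *SLC6A2* (36.5 against 6.98 to 9.23), *SLC7A11* (10.9 against 1.32 to 3.19), *SNAI2* (28.5 against 0.127 to 1.04), *SOX9* (6.51 against 0.201 to 0.439) and *SSTR2* (867 against 480.3 to 501). The same held for *TBX2* (188 against 53.2 to 86.3), *TERT* (6.86 against 4.43 to 4.89), *VIM* (801 against 321 to 364) and *YAP1* (17.6 against 0.604 to 1.46). It was below the other 4 for *DCX* (218 against 645 to 704), *DDC* (13.4 against 42.5 to 48.9), *EPHB6* (16.5 against 19.8 to 20.8), *INSM2* (0.465 against 2.82 to 3.53), *ISL1* (61.8 against 145 to 159.5) and *LMO3* (2.38 against 8.33 to 10.5). It was below them too for *LRATD1* (1505 against 2684 to 3050.4), *MEIS1-AS3* (16.9 against 44.5 to 54.4), *NEFL* (47.9 against 111 to 116), *PCSK2* (0.698 against 1.91 to 2.36) and *ST8SIA1* (23.6 against 48.5 to 51.9).

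Other libraries stood apart in single genes. *ABCB1* was at 3.02 CPM in IMR-32 replicate 3, against 1.34 to 1.61 CPM in the other 4. *CASZ1* was at 3.68 CPM in IMR-32 replicate 3, against 6.09 to 6.88 CPM in the other 4. *DCN* was at 36.9 CPM in SK-N-BE(2)C replicate 5, against 31.4 to 32.8 CPM in the other 4. *MLXIPL* was at 0.214 CPM in SK-N-BE(2)C replicate 5, against 0 to 0.0465 CPM in the other 4. *NEFH* was at 22.2 CPM in IMR-32 replicate 3, against 8.71 to 11.2 CPM in the other 4. *NTRK2* was at 3.9 CPM in IMR-32 replicate 3, against 1.11 to 1.74 CPM in the other 4. *RELN* was at 439 CPM in SK-N-BE(2)C replicate 1, against 635 to 713 CPM in the other 4. Further genes had counts in 1 library of a line and none in the other 4. In IMR-32 replicate 2 this was *OAS1* (0.0503 CPM). In IMR-32 replicate 3 this was *MGA* (0.165 CPM). In SK-N-BE(2)C replicate 1 this was *KIT* (0.093 CPM) and *VSNL1* (0.0465 CPM). In SK-N-BE(2)C replicate 3 this was *CYRIA* (0.148 CPM). In SK-N-BE(2)C replicate 4 this was *KCNK2* (0.0735 CPM), *KCNQ3* (0.0735 CPM) and *NLGN1* (0.0735 CPM).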

How the results depend on the processing

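The numbers of genes called, called in each direction, and lists and arms leaning to SK-N-BE(2)C stayed within 1.5 times the reported values under every alternative run. Called genes numbered 8908 with RLE size factors, 8902 with upper quartile factors, 8951 with library size alone, 8894 with DESeq2 and 8918 with limma-voom. They numbered 9213 with SK-N-BE(2)C replicates 3 to 5 summed to 1 library, 7608 when tested against the fold limit, and 11515 with no fold limit. Without a filter on low counts 10983 of 24636 genes were called, and 4807 rather than 2948 were more than 4-fold apart. Upper quartile factors moved the calls to 3845 higher in SK-N-BE(2)C and 5057 higher in IMR-32, the median of all genes to -0.11, the lists with more members higher in SK-N-BE(2)C from 15 to 12 and the arms with a median above 0 from 23 to 18, as that scaling shifts all genes. Leaving out 1 library at a time gave 8903 to 9436 called genes, 4250 to 4537 higher in SK-N-BE(2)C, 4624 to 4899 higher in IMR-32, 3018 to 3265 over 4-fold apart, 15 to 16 such lists and 21 to 24 such arms. In every alternative 0 called genes reversed, and 85.3% to 99.6% kept their call. After seeing the data, replicate 5 of both lines was left out (9365 called), as was IMR-32 replicate 5 with the tested genes unchanged (9164).

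The replicate numbers do not pair the lines: deviations of same-numbered libraries correlated at -0.04 to 0.18. With the replicate block 8895 genes were called, 4296 higher in SK-N-BE(2)C and 4599 higher in IMR-32. Of 240 genes named by the rule, 10 moved by over 1.5-fold and 3 changed call (*CDKN1A*, *PHOX2A* and *VIM*) without IMR-32 replicate 5, *ISL1*, *CDKN1A* and *PHOX2A* lost their calls in 13, 12 and 6 of 21 alternatives, and *RB1* (0.49) was among those that fell under the limit with upper quartile factors. Depth limits genes with few counts, where folds are bounds or intervals.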

Other observations

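Of 16 candidate tumour suppressor genes of distal 1p tested, 5 were called higher in SK-N-BE(2)C and 4 higher in IMR-32. The first is near the 29.7% and the second below the 32.2% over all genes tested. Their median log2 fold change was -0.23. *CHD5*, a chromatin remodeller, averaged 0.522 ± 0.152 CPM in SK-N-BE(2)C and 6.59 ± 1.43 CPM in IMR-32 (log2 fold change -3.63, SE 0.24, adjusted p = 4.92e-08). *ARID1A*, a SWI/SNF subunit, averaged 199 ± 16.1 against 323 ± 51.4 CPM (log2 fold change -0.70, SE 0.11, adjusted p = 7.10e-05). *CASZ1*, a zinc finger factor, was higher in SK-N-BE(2)C, at 18.8 to 27.5 against 3.68 to 6.88 CPM, with 3656 exon bases under a gene of the other strand.

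Of 15 telomere genes tested, 3 were called higher in SK-N-BE(2)C and 2 higher in IMR-32, or 3 and 4 with upper quartile scaling, and none was over 4-fold apart. The 3 were subunits of H/ACA ribonucleoproteins, with *NOP10* averaging 75.9 ± 2.5 against 26.5 ± 2.52 CPM, *GAR1* 42.6 ± 2.08 against 26.9 ± 7.46 CPM and *NHP2* 193 ± 7.92 against 119 ± 8.48 CPM. *DAXX*, a histone chaperone, was higher in IMR-32 (log2 fold change -0.62, SE 0.15, adjusted p = 2.58e-03).

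Among 7 tested Schwann cell and crest progenitor genes, 4 were called higher in SK-N-BE(2)C and 2 higher in IMR-32. *ERBB3*, a neuregulin receptor, was at 8.38 to 15.4 CPM in SK-N-BE(2)C but 0 to 0.385 CPM in IMR-32. Among 8 chromaffin cell genes, 5 and 3 were called in these directions.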
